A study of Mus musculus with 18 samples.

Results

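The 6 steroid receptor genes Esr1, Esr2, Pgr, Nr3c1, Nr3c2 and Gper1 were followed through the ovary, pituitary and hypothalamus of female mice after transport stress and superovulation. Each gene was represented by a transcript cluster that the array annotation assigns to it alone, and, where several did, by the one with the highest mean signal. All 6 of the 6 genes were measured, out of 22180 genes. Their clusters were 17231461 (Esr1), 17281979 (Esr2), 17514637 (Pgr), 17353985 (Nr3c1), 17502626 (Nr3c2) and 17444016 (Gper1).

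The stress mice were BABL/c females (strain name as labelled) driven for about 10 h over 1000 km at 50 km/h. The control mice were their untransported littermates, from 10 pairs, and both groups were superovulated at 9 weeks of age. Each group supplied 3 samples per tissue, called high and low after the single mice that ovulated most and fewest oocytes, and pool, in which the 8 remaining mice were combined, so that there were 18 arrays, 6 per tissue. Every mouse had therefore received superovulation, and no untreated cycling mouse was among the groups compared. The sample titles carry no animal identifier. That the ovary, pituitary and hypothalamus of a treatment and class came from the same mouse or pool was inferred from the class labels.

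Steroid receptors carry hormonal feedback along the axis that controls ovulation. The oestrogen receptors alpha (Esr1) and beta (Esr2), the progesterone receptor (Pgr), the glucocorticoid receptor (Nr3c1) and the mineralocorticoid receptor (Nr3c2) are nuclear transcription factors that bind DNA once loaded with hormone. Gper1 is a G protein-coupled receptor at the membrane that is described as an oestrogen receptor. In rodents Esr1 mediates oestrogen feedback in the brain and on gonadotropes, Esr2 is the main oestrogen receptor of granulosa cells, Pgr appears in granulosa cells for a short time after the luteinizing hormone surge and is needed for follicle rupture, and Nr3c1 carries glucocorticoid feedback in the pituitary and hypothalamus.

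All values are log2 signals, so that a difference of 1 is a change of 2-fold, and levels are compared only within a gene, since probes of different genes differ in brightness. Marker genes placed the tissues as labelled: 7 of 9 ovarian markers, with Amh and Inhbb the exceptions, 8 of 8 measured pituitary markers and 8 of 8 measured hypothalamic markers were higher in every array of their tissue than in any array of the others. Several pool arrays also carried markers of another tissue. The 9 ovarian markers averaged 7.44 in the stressed pituitary pool and 5.13 in the control pituitary pool, with 4.86 to 5.23 in the 4 single-mouse pituitaries. In hypothalamus they averaged 6.67 (stressed pool) and 4.96 (control pool), with 4.60 to 5.08 in single mice. The 8 pituitary markers averaged 6.55 (stressed pool) and 6.20 (control pool) in the ovary pools, with 4.35 to 4.62 in single-mouse ovaries. Single mice varied too. In their hypothalami the 8 pituitary markers averaged 5.04 to 5.95. Among these, Prl read 8.68 (stress) and 5.53 (control) in the high mice and 6.55 (stress) and 9.26 (control) in the low mice. Results that rest on the pools are given with and without them, which leaves this variation among single mice in place. Its part in the receptor values was not tested.

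The receptor genes were set apart by tissue far more than by stress. Esr1 and Gper1 were highest in pituitary, Esr2 was highest in ovary, and Pgr and Nr3c2 were lowest in ovary. Nr3c1 had the narrowest spread of tissue means of the 6 genes. None of the 6 passed the test for stress in any tissue. Promoter sequence is shown for Esr1, Esr2 and Gper1 because these 3 are the oestrogen receptors, with Esr2 highest in ovary and Esr1 and Gper1 highest in pituitary.

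The sequences are the bases before the annotated start in RefSeq, assembly GRCm38.p6, written 5′ to 3′ on the gene's strand, with the oestrogen response core motif GGTCA (either strand) in capitals. For Esr1 they cover chr10:4611739-4611988 (plus strand, 250 bases), for Esr2 chr12:76177260-76177509 (minus strand, 250 bases) and for Gper1 chr5:139422929-139423149 (plus strand, the first 221 of the 250 bases).
Esr1: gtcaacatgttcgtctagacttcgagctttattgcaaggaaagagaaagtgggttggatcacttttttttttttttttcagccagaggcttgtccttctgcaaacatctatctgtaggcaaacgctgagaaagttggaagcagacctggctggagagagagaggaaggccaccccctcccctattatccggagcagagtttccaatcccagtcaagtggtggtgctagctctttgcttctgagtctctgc
Esr2: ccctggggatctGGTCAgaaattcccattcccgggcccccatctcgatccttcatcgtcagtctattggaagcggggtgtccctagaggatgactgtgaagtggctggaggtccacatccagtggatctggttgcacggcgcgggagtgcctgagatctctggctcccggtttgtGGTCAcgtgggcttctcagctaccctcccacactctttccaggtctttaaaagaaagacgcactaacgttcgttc
Gper1: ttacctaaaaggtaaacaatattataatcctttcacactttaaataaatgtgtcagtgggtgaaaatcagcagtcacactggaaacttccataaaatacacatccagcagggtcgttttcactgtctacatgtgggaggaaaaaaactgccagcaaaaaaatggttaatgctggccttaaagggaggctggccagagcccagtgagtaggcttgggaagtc

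The Esr2 window held 2 copies of GGTCA and the Esr1 and Gper1 windows held 0. Of 32851 RefSeq promoter windows of the same 250 bases, 35.2% held the core at least once, so that its presence is common. Of the other members, Nr3c2 had 2 copies and Pgr had 0, and 5 of the 6 members were matched to a promoter, all but Nr3c1. No window of the 5 held the palindromic oestrogen response element, GGTCA and TGACC with 3 bases between (0.0639% of windows), the corticosteroid and progesterone response core AGAACA (16.1%), its palindrome, AGAACA and TGTTCT with 3 bases between (0.00913%), or CAAGGTCA, the extended core bound by Nr5a1 and Esrra (1.33%), on either strand. The oestrogen palindrome and CAAGGTCA both contain the core GGTCA, and the longer AGAACA motif contains the shorter. A match is a description of the letters in the window.

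Esr1, the oestrogen receptor of gonadotrope and hypothalamic feedback, was highest in pituitary. Its lowest, median and highest values were 6.88, 7.22 and 7.50 in ovary, 8.33, 9.00 and 9.37 in pituitary and 6.16, 6.43 and 6.79 in hypothalamus. The 3 tissues did not overlap, in the order pituitary, ovary, hypothalamus. Means were 7.21 ± 0.25 in ovary, 8.95 ± 0.36 in pituitary and 6.49 ± 0.23 in hypothalamus (SD, n = 6 each). Pituitary exceeded hypothalamus by 2.46 (SE 0.14, 95% CI 2.16 to 2.76, limma adjusted p = 1.06e-10), a ratio of 5.50. Ovary exceeded hypothalamus by 0.72 (SE 0.14, limma adjusted p = 0.000283) and lay below pituitary, at -1.74 (SE 0.14, limma adjusted p = 8.27e-09). In whole-tissue RNA, fewer cells of a type and less RNA per cell cannot be told apart.

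Esr2, the oestrogen receptor of granulosa cells, was highest in ovary. Its lowest, median and highest values were 6.48, 7.23 and 7.49 in ovary, 4.82, 5.24 and 5.99 in pituitary and 5.34, 5.59 and 5.76 in hypothalamus. Every ovary array lay above every array of the other tissues, while pituitary and hypothalamus overlapped. Ovary, at 7.13 ± 0.37, exceeded pituitary, at 5.28 ± 0.39, by 1.85 (SD, n = 6 each; SE 0.17, limma adjusted p = 3.30e-08), a ratio of 3.61. It exceeded hypothalamus, at 5.56 ± 0.16 (SD, n = 6), by 1.57 (SE 0.17, limma adjusted p = 1.83e-07), a ratio of 2.97. In single-mouse pituitaries Esr2 read 4.82 to 5.32, near the mean of the 9 ovarian markers there, 4.86 to 5.23. The ratio of 3.61 thus rests on low signals in pituitary. In single-mouse hypothalami Esr2 read 5.34 to 5.76, and these markers averaged 4.60 to 5.08. The pituitary minus hypothalamus difference was -0.28 (95% CI -0.63 to 0.08, limma adjusted p = 0.213) and did not pass. Without the stressed pituitary pool it was -0.44 and passed (limma adjusted p = 0.0256), while without any pool it was -0.41 and did not (limma adjusted p = 0.108).

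That pool decided the upper end of the pituitary range for Esr2. It read 5.99, and the other 5 pituitary arrays ran from 4.82 to 5.32. It was also the array in which 8 of the 9 ovarian markers exceeded all 4 single mice, among them Cyp11a1, the enzyme that starts steroid synthesis, at 11.34 with 3.51 to 5.31 in the other pituitaries. Of the 6 measured markers of neighbouring forebrain regions 5 also exceeded all 4 single mice in this array. The mean of the 6 was 5.65 there, with 4.91 to 5.09 in the single-mouse pituitaries. The part of either marker list in this Esr2 value was not tested. Over all genes, 16.2% were highest in the stressed pituitary pool.

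**Figure D1:**
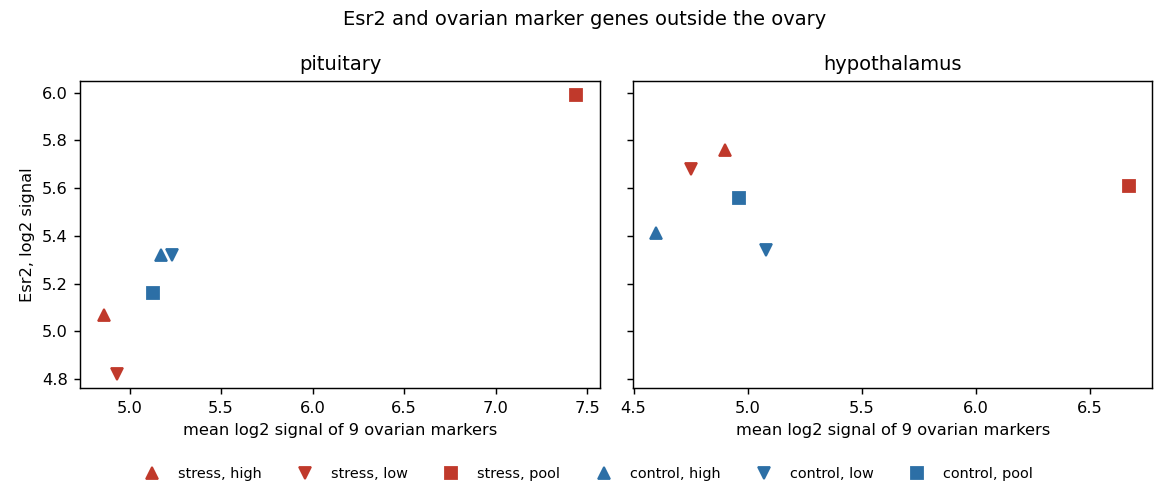
Esr2 level (log2 signal, vertical axis) of each pituitary and hypothalamus array against the mean of the 9 ovarian markers in the same array (log2 signal, horizontal axis). Tissue, treatment and class are marked, and the ovary arrays are not shown. The stressed pituitary pool stands to the right of the other pituitaries, at an ovarian marker mean of 7.44 and an Esr2 level of 5.99, while the stressed hypothalamus pool, at a marker mean of 6.67, has an Esr2 level of 5.61.

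Gper1, the membrane receptor, was highest in pituitary. It ranged over 4.28, 4.63 and 4.87 in ovary, 6.39, 6.75 and 7.51 in pituitary and 4.73, 5.03 and 5.32 in hypothalamus (lowest, median and highest). Every pituitary array lay above every array of the other tissues, and ovary and hypothalamus overlapped. Pituitary averaged 6.85 ± 0.48 and hypothalamus 5.01 ± 0.22 (SD, n = 6 each), a difference of 1.84 (SE 0.16, 95% CI 1.50 to 2.18, limma adjusted p = 2.27e-08) and a ratio of 3.58. Ovary averaged 4.60 ± 0.26 (SD, n = 6) and lay below pituitary, at -2.25 (SE 0.16, limma adjusted p = 1.14e-09), so that pituitary was 4.77 times as high. The 8 hypothalamic markers averaged 4.36 to 4.62 in the ovary arrays. Gper1 in ovary thus lay near the signal of genes of another tissue, and the ratio rests on such low values. Ovary also lay below hypothalamus, at -0.42 (95% CI -0.75 to -0.08, limma adjusted p = 0.0401), but this call ended in 12 of 22 alternatives, among them the fit without the pools (-0.41, limma adjusted p = 0.131).

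Pgr, which oestrogen induces in the pituitary and hypothalamus, was lowest in ovary. Its lowest, median and highest values were 4.12, 4.45 and 4.89 in ovary, 5.28, 5.72 and 6.50 in pituitary and 5.34, 5.73 and 6.14 in hypothalamus. All ovary arrays lay below all arrays of the other tissues, which overlapped almost fully. Ovary averaged 4.47 ± 0.28, pituitary 5.74 ± 0.42 and hypothalamus 5.74 ± 0.28 (SD, n = 6 each). Ovary lay below pituitary, at -1.27 (SE 0.18, limma adjusted p = 8.38e-06), and below hypothalamus, at -1.28 (SE 0.18, limma adjusted p = 5.45e-06). Pituitary and hypothalamus were each 2.42 times as high as ovary. As for Gper1, the ovary values lay near the mean of the hypothalamic markers in ovary, 4.36 to 4.62, so that the ratio rests on low signals. The pituitary minus hypothalamus difference had a 95% CI of -0.38 to 0.37 (limma adjusted p = 0.995), which bounds it but does not show equal levels.

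Nr3c2, the receptor with high affinity for both aldosterone and corticosterone, was also lowest in ovary. It read 4.89, 5.43 and 5.58 in ovary, 6.61, 6.75 and 6.93 in pituitary and 6.00, 6.41 and 6.88 in hypothalamus (lowest, median and highest). Ovary lay below both other tissues without overlap, while pituitary and hypothalamus overlapped. Ovary, at 5.33 ± 0.28, differed from pituitary, at 6.76 ± 0.14, by -1.43 (SD, n = 6 each; SE 0.13, limma adjusted p = 2.85e-08), with pituitary 2.70 times as high. It differed from hypothalamus, at 6.44 ± 0.31 (SD, n = 6), by -1.11 (SE 0.13, limma adjusted p = 5.27e-07). Pituitary minus hypothalamus was 0.32 (95% CI 0.05 to 0.59, limma adjusted p = 0.0579), which did not pass the threshold of 0.05, and the adjusted p ran from 0.0197 to 0.195 over the alternatives. A dimmer cluster that names Nr3c2 alone, 17510628, read 3.07 to 4.08 over the 18 arrays and called no tissue difference (limma adjusted p = 0.0902 for pituitary minus hypothalamus, 0.065 for ovary minus hypothalamus and 0.934 for ovary minus pituitary), so that the Nr3c2 calls rest on 1 of 2 clusters.

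Nr3c1, the glucocorticoid receptor, had close levels in the 3 tissues. It read 7.17, 7.46 and 7.50 in ovary, 7.23, 7.62 and 7.72 in pituitary and 7.50, 7.83 and 8.38 in hypothalamus (lowest, median and highest), with the pituitary overlapping both others. Means were 7.42 ± 0.12 in ovary, 7.57 ± 0.18 in pituitary and 7.92 ± 0.35 in hypothalamus (SD, n = 6 each). Ovary lay below hypothalamus, at -0.50 (SE 0.14, limma adjusted p = 0.00505). Ovary minus pituitary was -0.16 (95% CI -0.45 to 0.13, limma adjusted p = 0.399). Pituitary minus hypothalamus was -0.34 (95% CI -0.63 to -0.05, limma adjusted p = 0.056), which passed without the control hypothalamus of the high mouse (-0.41), the stressed hypothalamus of the high mouse (-0.44) or the stressed pituitary of the high mouse (-0.41), with limma adjusted p of 0.0361, 0.0132 and 0.0301. This difference also passed with all arrays among the genes at or above the median level (limma adjusted p = 0.0297).

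**Figure D2:**
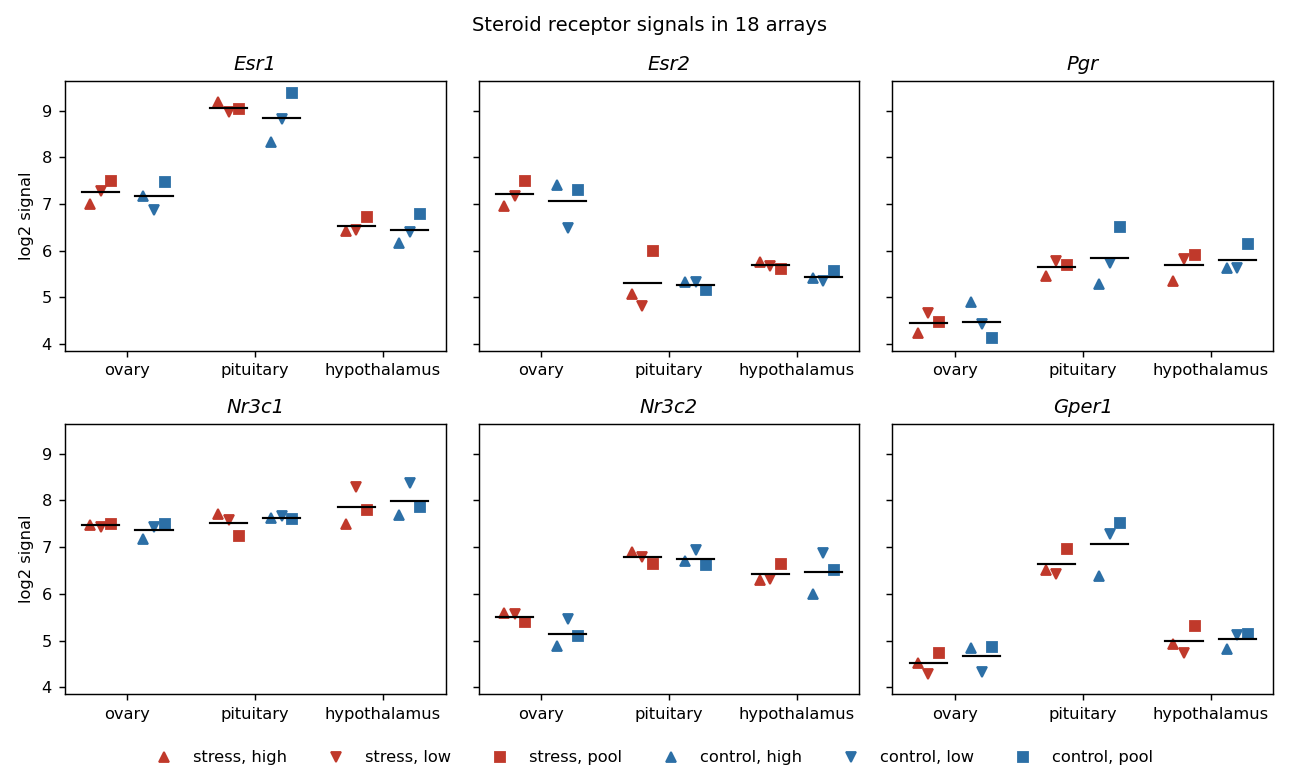
Level (log2 signal, vertical axis) of each of the 6 receptor genes in every array, by tissue (ovary, pituitary, hypothalamus) and treatment, stress left of control, with the class of each sample marked and the mean of 3 samples as a line. Esr1 and Gper1 stand highest in pituitary, Esr2 stands highest in ovary, Pgr and Nr3c2 stand lowest in ovary, and Nr3c1 lies between 7.17 and 8.38 throughout.

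Counted over the 6 genes, 2 were higher and 0 lower in pituitary than in hypothalamus, where 39.5% of all genes passed (19.9% higher, 19.6% lower). In ovary relative to hypothalamus 2 were higher and 4 lower, where 47.2% of all genes passed (25.7% higher, 21.5% lower). In ovary relative to pituitary 1 was higher and 4 lower, where 41% of all genes passed (21.8% higher, 19.2% lower). Values without overlap between tissues were found for 2 of 6 in pituitary and hypothalamus (20.5% of all genes), 4 of 6 in ovary and hypothalamus (31.9%) and 5 of 6 in ovary and pituitary (21.8%). Without the pools the numbers of members that passed were 2 for pituitary against hypothalamus, 5 for ovary against hypothalamus and 5 for ovary against pituitary. Without them ovary minus pituitary was -1.74 for Esr1, 1.87 for Esr2, -1.01 for Pgr, -1.46 for Nr3c2 and -2.16 for Gper1, and pituitary minus hypothalamus was 2.47 for Esr1 and 1.75 for Gper1. Tissue differences were common among all genes.

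**Figure D3:**
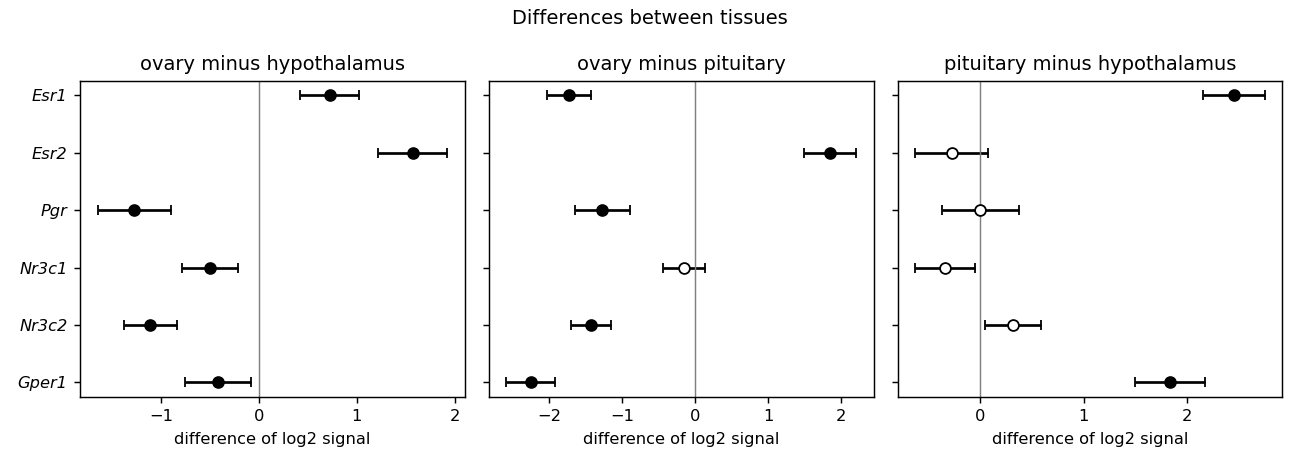
Differences between tissue means (log2, horizontal axis) of the 6 receptor genes with 95% confidence intervals from limma, for ovary minus pituitary, ovary minus hypothalamus and pituitary minus hypothalamus. The differences run from -2.25 for Gper1 in ovary minus pituitary to 2.46 for Esr1 in pituitary minus hypothalamus.

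The genes whose levels followed each receptor most closely over the 18 arrays are named here as a description, since differences between tissues enter every such correlation. For Nr3c1 the tissue means lay closer together than its hypothalamic arrays did among themselves. For Esr1 they were Pcsk6 (Pearson r = 0.993), Elmo3 (0.977) and Epcam (0.977), of which Epcam encodes an epithelial adhesion molecule. For Esr2 they were Wt1 (0.974), Vcan (0.972) and Adamts1 (0.966), of which Wt1 is a transcription factor of gonadal somatic cells and Vcan and Adamts1 encode a matrix proteoglycan and a protease that cleaves it. For Pgr they were Mc3r (0.966), a melanocortin receptor, with Usp35 and Sfrp5 (0.941 each). Nr3c1 was followed by Cdc37l1 (0.919), Cyld (0.900) and Rictor (0.898), Nr3c2 by Sphkap (0.955), Cdkl2 (0.953) and Dbpht2 (0.948), and Gper1 by Sdf4 (0.983), Cdh26 (0.969) and Tcta (0.968). The search covered 17239 genes, and arrays from 1 mouse or pool are not independent.

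Transport stress changed none of the 6 receptor genes past the threshold in ovary, pituitary or hypothalamus. Among all genes 0% passed in each tissue, and at an unadjusted p under 0.05 the count was 0 of the 18 receptor tests, with 2.67% of all genes in ovary, 1.33% in pituitary and 1.1% in hypothalamus. The stress minus control differences ran from -0.43 to 0.36, and their 95% confidence intervals together from -1.17 to 0.88. For single genes the interval was narrower, for example -0.42 to 0.58 for Esr1 in ovary. The smallest adjusted p over the 18 tests was 0.999 in limma. The fit held no term for ovulation class, so differences between classes, the pools included, entered its spread. Its p-values and intervals can therefore be wider than the stress difference alone requires. The shares of all genes at an unadjusted p under 0.05 also lay below the 0.05 that tests without any effect would give. With class as a replicate block no receptor passed either, and none passed without the pools.

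Nr3c2 in ovary had the smallest unadjusted p. It read 5.58, 5.56 and 5.39 in stressed and 4.89, 5.46 and 5.09 in control ovaries (high, low and pool). The stressed ovaries were higher in each class, by 0.68, 0.10 and 0.30, but the stressed pool lay below the control ovary of the low mouse. Stress averaged 5.51 ± 0.10 and control 5.15 ± 0.29 (SD, n = 3 each), a difference of 0.36 (95% CI -0.09 to 0.81, limma adjusted p = 0.999). The dimmer Nr3c2 cluster gave -0.08. The difference was 0.39 without the pools.

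Esr2 in hypothalamus was the single one of the 18 receptor comparisons without overlap between stress and control, a state reached by 4.54% of all genes in this tissue, 8.77% in ovary and 6.08% in pituitary. It read 5.76, 5.68 and 5.61 in stressed and 5.41, 5.34 and 5.56 in control hypothalami (high, low and pool). The gap between the groups was small, since the stressed pool and the control pool differed by 0.05, while the high mice differed by 0.36 and the low mice by 0.35. Stress averaged 5.69 ± 0.08 and control 5.43 ± 0.12 (SD, n = 3 each), a difference of 0.25 (95% CI -0.16 to 0.66, limma adjusted p = 1). The stressed pool also had the ovarian marker mean of 6.67 given above. The 6 measured markers of neighbouring forebrain regions averaged 5.46, 6.13 and 6.40 in stressed and 6.42, 6.86 and 6.38 in control hypothalami (high, low and pool), lower under stress in the high and low mice, in which Esr2 was higher, and nearly level in the pools. The part of either marker list in the Esr2 values was not tested. Without the pools the difference was 0.35.

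Esr2 in pituitary turned direction with the pools. It read 5.07, 4.82 and 5.99 in stressed and 5.32, 5.32 and 5.16 in control pituitaries (high, low and pool). Both stressed single mice lay below all control arrays and the stressed pool lay above them. The single-mouse values were low signals, near the mean of the ovarian markers in these pituitaries. The difference was 0.03 (95% CI -0.69 to 0.75, limma adjusted p = 1) with the pools and -0.37 without them.

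Gper1 in pituitary had the lowest of the 18 differences. It read 6.52, 6.42 and 6.97 in stressed and 6.39, 7.28 and 7.51 in control pituitaries (high, low and pool). The low mouse and the pool were lower under stress, by -0.86 and -0.54, and the high mouse was higher by 0.13, with overlapping groups. Stress averaged 6.64 ± 0.29 and control 7.06 ± 0.59 (SD, n = 3 each), a difference of -0.43 (95% CI -1.17 to 0.32, limma adjusted p = 1).

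In pituitary Esr1 and Pgr also differed between classes. Esr1 read 9.19, 8.96 and 9.04 in stressed and 8.33, 8.82 and 9.37 in control pituitaries (high, low and pool), so that stress minus control was 0.86, 0.14 and -0.33. The control arrays covered the stressed ones on both sides, and the difference of means was 0.22 (95% CI -0.43 to 0.88), or 0.50 without the pools. Pgr read 5.45, 5.77 and 5.70 in stressed and 5.28, 5.74 and 6.50 in control pituitaries, which gave 0.16, 0.03 and -0.80 by class. Its highest value was that of the control pool, and the difference of -0.20 (95% CI -0.93 to 0.53) became 0.10 without the pools.

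The receptors in ovary gave the same picture of classes that differed. Esr1 read 6.99, 7.28 and 7.50 in stressed and 7.16, 6.88 and 7.47 in control ovaries (high, low and pool), Esr2 read 6.96, 7.17 and 7.49 in stressed and 7.40, 6.48 and 7.29 in control ovaries, and both were lower in the stressed than the control high mouse and higher in the stressed than the control low mouse. Pgr read 4.23, 4.66 and 4.48 in stressed and 4.89, 4.42 and 4.12 in control ovaries, with -0.66 in the high class, 0.24 in the low class and 0.36 in the pools. The differences of means were 0.08 for Esr1, 0.15 for Esr2 and -0.02 for Pgr. Gper1 read 4.52, 4.28 and 4.74 in stressed and 4.84, 4.32 and 4.87 in control ovaries, lower under stress in each class but overlapping, with a difference of -0.16 (95% CI -0.66 to 0.34).

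Nr3c1, through which glucocorticoids act, had differences of means of 0.10 in ovary, -0.12 in pituitary and -0.12 in hypothalamus. It read 7.48, 7.44 and 7.49 in stressed and 7.17, 7.43 and 7.50 in control ovaries (high, low and pool). It read 7.72, 7.59 and 7.23 in stressed and 7.63, 7.67 and 7.60 in control pituitaries, where the stressed pool was the lowest of the 6 arrays, as it was for 16.9% of all genes. It read 7.50, 8.28 and 7.79 in stressed and 7.68, 8.38 and 7.87 in control hypothalami, lower under stress in each class, at -0.18, -0.11 and -0.08, far inside the range of the classes. The 95% confidence intervals were -0.29 to 0.49 in ovary, -0.62 to 0.38 in pituitary and -0.73 to 0.48 in hypothalamus.

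The remaining hypothalamic and pituitary comparisons showed smaller differences of means, between -0.10 and 0.08, all with overlapping groups. In hypothalamus Esr1 read 6.42, 6.44 and 6.73 in stressed and 6.16, 6.40 and 6.79 in control mice, and Pgr read 5.34, 5.83 and 5.91 in stressed and 5.62, 5.62 and 6.14 in control mice (high, low and pool). Gper1 read 4.93, 4.73 and 5.32 in stressed and 4.82, 5.12 and 5.15 in control hypothalami. Nr3c2 read 6.29, 6.31 and 6.65 in stressed and 6.00, 6.88 and 6.51 in control hypothalami, with the classes 0.30, -0.57 and 0.14 apart. In pituitary it read 6.90, 6.80 and 6.63 in stressed and 6.70, 6.93 and 6.61 in control mice.

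**Figure D4:**
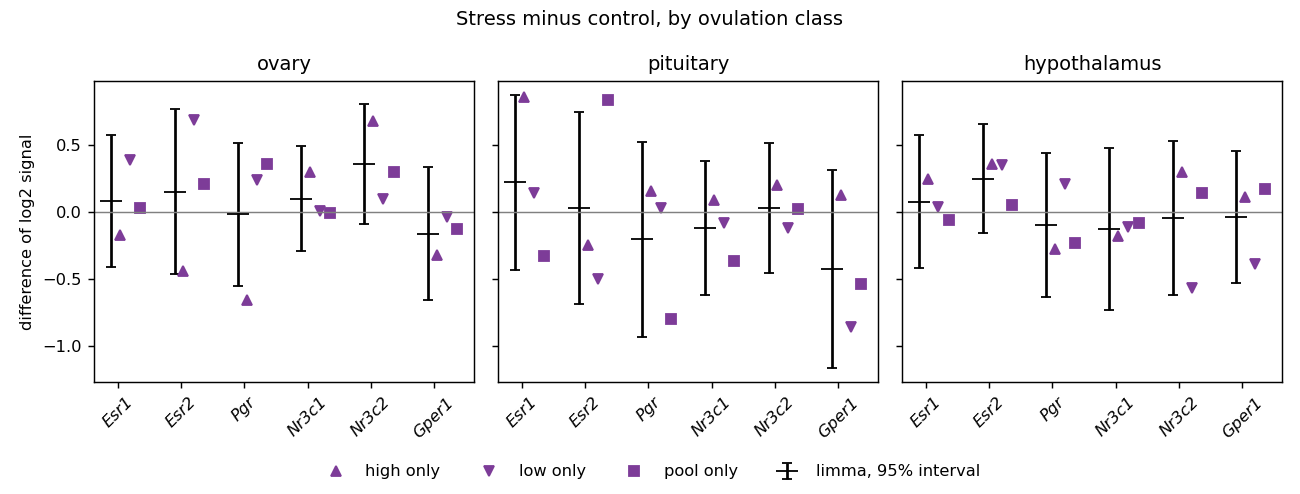
Stress minus control (log2, vertical axis) of the 6 receptor genes in ovary, pituitary and hypothalamus, with a point for each class (high, low, pool) and the difference of means with its 95% confidence interval from limma. Every interval crosses 0, and the classes of a gene often lie on both sides of 0, as for Esr2 in pituitary at -0.25, -0.50 and 0.84.

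Stress minus control kept 1 sign over the 3 classes in 4 of 18 combinations of gene and tissue: higher for Esr2 in hypothalamus and Nr3c2 in ovary, lower for Nr3c1 in hypothalamus and Gper1 in ovary. By tissue these were 2 of 6 in ovary, 0 of 6 in pituitary and 2 of 6 in hypothalamus, beside 36.3%, 27.8% and 23.6% of all genes. There was 1 stressed and 1 control sample in each class, so single classes were not tested. The difference in stress effect between tissues did not pass for any receptor (18 interaction tests in limma, from -0.39 to 0.40, 0% of all genes passing). Unadjusted p under 0.05 was reached by 0 of 18 receptor tests, beside 3.49% of all genes for pituitary minus hypothalamus, 2.24% for ovary minus hypothalamus and 3.63% for ovary minus pituitary. The smallest unadjusted p was that of Nr3c2 for ovary minus hypothalamus, at 0.40 (95% CI -0.14 to 0.95, limma adjusted p = 1).

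Ovulation class was compared as the high minus the low mouse of both treatments, with treatment held in the model. None of the 6 receptors passed in any tissue, as for 0% of all genes. Nr3c1 in hypothalamus was the only one of 18 tests with an unadjusted p under 0.05, a level reached by 19.3% of all genes in that tissue. It read 7.50 (stress) and 7.68 (control) in the high mice and 8.28 (stress) and 8.38 (control) in the low mice. Both high mice lay below both low mice, with differences of -0.78 under stress and -0.70 in controls. High and low mice did not overlap for 1 of 6 receptors in ovary (Gper1), 1 of 6 in pituitary (Pgr) and 3 of 6 in hypothalamus (Nr3c1, Nr3c2 and Pgr), beside 35.8%, 32.8% and 49.6% of all genes. For Pgr in hypothalamus this rests on a near tie, with the control high mouse at 5.6201 and the control low mouse at 5.6217. The fitted Nr3c1 difference in hypothalamus was -0.74 (SE 0.16, 95% CI -1.12 to -0.37, limma adjusted p = 0.135). Among the genes at or above the median level it passed (limma adjusted p = 0.0359), as did 875 of those 11090 genes.

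Markers of neighbouring forebrain regions were also lower in the high than in the low mouse of each treatment. Unlike Nr3c1, they overlapped between the classes, since the control high mouse lay above the stressed low mouse. The mean of the 6 of 8 such markers that were measured was 5.46 (stress) and 6.42 (control) in the high mice and 6.13 (stress) and 6.86 (control) in the low mice. Over the hypothalamic arrays this mean ran from 5.46 to 6.86. The part of these regions in the Nr3c1 values was not tested.

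Other receptors differed less between high and low mice. Gper1 in ovary was higher in the high mice, at 4.52 (stress) and 4.84 (control), than in the low mice, at 4.28 (stress) and 4.32 (control), a difference of 0.38 (limma adjusted p = 0.464). Nr3c2 in hypothalamus differed by -0.45, with -0.02 under stress and -0.89 in controls. Esr2 in ovary differed by 0.35, but with -0.22 under stress and 0.92 in controls, and Pgr in ovary by 0.02, with -0.44 under stress and 0.47 in controls. In pituitary Gper1 differed by -0.39, with 0.10 under stress and -0.89 in controls, and Pgr by -0.40, with -0.33 under stress and -0.46 in controls. High minus low had the same sign in stressed and control mice in 1 of 6 receptors in ovary, 1 of 6 in pituitary and 5 of 6 in hypothalamus, beside 56.1%, 52.2% and 62% of all genes. The 5 in hypothalamus include Pgr, at -0.49 under stress and a near tie in controls.

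**Figure D5:**
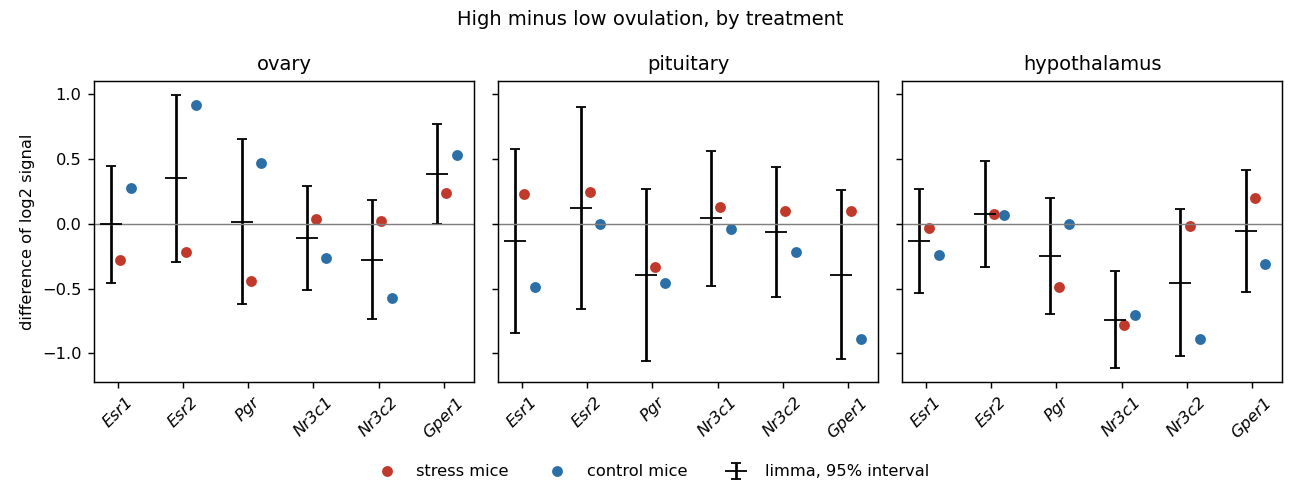
High minus low ovulation (log2, vertical axis) of the 6 receptor genes in each tissue, with a point for stressed and for control mice and the fitted difference with its 95% confidence interval. Nr3c1 in hypothalamus, at -0.78 under stress and -0.70 in controls, is the only one whose interval leaves out 0.

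The pools stood apart from single mice for several receptors. Both pools exceeded all 4 single mice in 5 of 18 combinations and lay below them in 1. For Esr1 in ovary the pools read 7.50 (stress) and 7.47 (control), with 6.88 to 7.28 in single mice. In hypothalamus they read 6.73 (stress) and 6.79 (control), with 6.16 to 6.44 in single mice. Pgr and Gper1 in hypothalamus and Nr3c1 in ovary were the others above, and Nr3c2 in pituitary was the one below. Both pools were above or below all single mice for 37.1% of all genes in ovary, 43.1% in pituitary and 36.7% in hypothalamus. For Esr1 the mean of the pools exceeded that of the single mice by 0.40 in ovary, 0.38 in pituitary and 0.40 in hypothalamus. The ovary pools also had the raised pituitary markers given above. In hypothalamus these markers averaged 5.40 (stressed pool) and 5.68 (control pool), with 5.04 to 5.95 in single mice. The part of these markers in the Esr1 values was not tested.

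Genes that act with or downstream of the receptors were described by lists. Under stress 0 members of the 8 lists passed in any tissue. In ovary 12 of 14 progesterone receptor targets at ovulation were on the higher side, with a median of 0.21, where the median of all genes was -0.02. They ran from Il6 at 0.80 to Edn2 at -0.24. The shift was not particular to stress, since high minus low ovulation in ovary put 11 of the 14 on the higher side, with a median of 0.23. Il6 was dim, at 3.06 to 4.79 in ovary. So were Cckar, at 3.50 to 4.70 in ovary, and Ptges3, at 3.54 to 4.33 in pituitary, both named below. Of 11 measured oestrogen-induced genes, Pgr among them, 2 were on the higher side in ovary, with a median of -0.13, from Tff1 at 0.14 to Cckar at -0.60. Corticosteroid receptor targets had medians of 0.03 in ovary, 0.00 in pituitary and -0.03 in hypothalamus. Of the 10 measured receptor chaperones in pituitary 4 were on the higher side, with a median of -0.15, from Fkbp5, the cochaperone that glucocorticoids induce, at 0.19 to Ptges3, the cochaperone p23, at -0.47, and without the pools 1 of 10 was on the higher side, with a median of -0.23. Of the 14 measured coactivators and corepressors in pituitary 11 were on the higher side, with a median of 0.16, from Crebbp at 0.33 to Phb2 at -0.09. This list also shifted with ovulation class. High minus low put 13 of the 14 on the lower side in pituitary, with a median of -0.32, and 13 in ovary, with a median of -0.25.

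Between tissues many of these genes passed, as did many of all genes: 25.7% were higher and 21.5% lower in ovary than in hypothalamus, 21.8% higher and 19.2% lower in ovary than in pituitary, and 19.9% higher and 19.6% lower in pituitary than in hypothalamus. Of the 14 progesterone receptor targets 9 were higher and 2 lower in ovary than in hypothalamus, and 11 were higher and 1 lower in ovary than in pituitary, while Pgr itself was lowest in ovary. Among them Adamts1, the matrix protease of the ovulating follicle, was higher by 3.76 and 3.79, and Cxcr4, a chemokine receptor, by 2.10 and 1.67 in these 2 comparisons. Snap25, a synaptic vesicle fusion protein, was lower in ovary by -6.15 and -5.39.

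Of the 14 corticosteroid receptor targets 8 were higher and 1 lower in ovary than in hypothalamus, and 7 were higher and 1 lower in ovary than in pituitary. Fkbp5 averaged 9.65 in ovary, 6.54 in pituitary and 5.92 in hypothalamus. Sgk1, a kinase that mineralocorticoids and glucocorticoids induce, averaged 9.30 in ovary, 6.07 in pituitary and 6.59 in hypothalamus. Scnn1a, a subunit of the epithelial sodium channel, was the one lower in ovary, by -0.43 relative to hypothalamus and -1.56 relative to pituitary. The Scnn1a difference from hypothalamus did not pass under quantile normalization or without the pools.

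Among enzymes that make or inactivate the ligands near the receptor, 5 of 7 measured were higher and 1 lower in ovary than in each of the other tissues. Hsd17b1, which makes oestradiol from oestrone, was higher by 3.85 than in hypothalamus and by 3.20 than in pituitary. Akr1c18, which inactivates progesterone, averaged 12.54 in ovary, 4.91 in pituitary and 4.74 in hypothalamus. It read 9.26 in the stressed pituitary pool and 7.31 in the stressed hypothalamus pool, the arrays with raised ovarian markers, and the single mice averaged 4.17 in pituitary and 4.21 in hypothalamus. Hsd11b1, which regenerates active glucocorticoid, was lower in ovary by -0.85 relative to hypothalamus and -0.96 relative to pituitary.

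Of 7 membrane progesterone receptors 6 were lower and 0 higher in pituitary than in hypothalamus, with a median of -1.01 beside 0.04 for all genes. Paqr6 was lower by -2.94 and Paqr8 by -1.59. In ovary 4 were lower and 1 higher than in hypothalamus, and 2 were higher and 0 lower than in pituitary, led by Paqr5 at 1.05. Of 10 measured related receptors 4 were higher and 4 lower in ovary than in hypothalamus, and 4 were higher and 2 lower in pituitary than in hypothalamus, where 47.2% and 39.5% of all genes passed in either direction. Nr5a2 and Nr5a1, which drive ovarian steroidogenic genes, were higher in ovary than in hypothalamus by 3.69 and 2.93, and Thrb, the thyroid hormone receptor beta, was higher in pituitary than in hypothalamus by 1.97. Of 11 measured oestrogen-induced genes 5 were higher and 2 lower in pituitary than in hypothalamus, and Greb1 averaged 9.44 in ovary, 6.95 in pituitary and 5.08 in hypothalamus. In pituitary Greb1 read 8.17 (stress) and 8.03 (control) in the pools, and the single mice averaged 6.37.

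Of 10 measured receptor chaperones 5 were higher and 0 lower in ovary than in pituitary, among them Fkbp5 by 3.11 and Bag1 by 0.96, but under quantile normalization 2 were higher, and without the pools 2 were lower. Of 14 measured coactivators and corepressors 5 were higher and 4 lower in ovary than in hypothalamus, where 25.7% of all genes were higher and 21.5% lower. Nrip1, a corepressor needed for ovulation in mice, was higher by 1.67, and Foxa1, a pioneer factor, was lower by -1.39.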

How the data were processed

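The 18 mouse RNA samples were hybridised to Affymetrix Mouse Gene 2.0 ST arrays. The deposited values are log2 signals, a single value per transcript cluster and array, made by the authors with Transcriptome Analysis Console per the submitters' processing notes; its version, background correction and normalization are not given in the sources used here. Base 2 was inferred because the highest value, 13.66, lies between the natural logarithm (11.09) and the base-2 logarithm (16) of the largest 16-bit reading.

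Of 41345 clusters 25335 carry an annotation; the 23521 naming 1 gene gave 22180 genes, and 1814 naming several were left out. Entrez identifiers of 23328 clusters matched the RefSeq gene table, which changed 0 symbols. No filter on low values was applied. The array annotation names no assembly, so no gene coordinates are given; promoter windows come from GRCm38.p6. Named genes are the 6 receptors, the 3 genes most correlated with each over the arrays, and, from each list, up to 2 genes per direction with the smallest adjusted p, or the largest and smallest difference where none passed.

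Tests used limma 3.58.1 (R 4.3.3) on all 22180 genes, two-sided, with Benjamini-Hochberg adjustment and a threshold of 0.05. Stress minus control used the 6 arrays of a tissue without covariates, and high minus low used class and treatment. Tissue differences and differences in stress effect used all 18 arrays with the animal or pool, as inferred from treatment and class, as a random block (correlation 0.270). Alternatives were quantile normalization, genes at or above the median level, all clusters, the other Nr3c2 cluster, no pools, each array left out, and replicate blocks. The labels give no separate replicates beyond 2 single mice and a pool of 8 mice per group, and the number of arrays limits precision. Steps were tested on simulated data. Deviations from group means correlated at 0.359 to 0.727 in 9 same-class pairs of stressed and control arrays and at -0.521 to 0.321 in 18 different-class pairs. Deviations cancel within a group, so positive same-class values push the different-class ones down, and the contrast is not a test of the pairing. The pairing rests on class, since the paired samples share no animal. The members and gene lists were chosen with earlier results of these data known. Plots used matplotlib 3.10.9 and Python 3.11.15.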

Additional observations from a re-analysis of the deposited data

How the results depend on the processing

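With ovulation class as a replicate block 0 genes passed for stress in each tissue, as without it, and with the animal or pool as a fixed replicate block no receptor call changed. Of 18 receptor differences for stress, 14 changed sign in at least 1 alternative and 4 kept it in all, and of 18 for high minus low 11 changed sign; none of the stress ones passed in any alternative. Of 18 tissue differences 11 kept direction and side of the threshold in all alternatives and 2 changed sign. Numbers of all genes passing between tissues ran from 6789 to 12054 for pituitary minus hypothalamus (8768 as reported), from 7674 to 13439 for ovary minus hypothalamus (10459) and from 6760 to 11113 for ovary minus pituitary (9086). The causes of the changes below were not tested, and the number of arrays limits what could be detected.

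Without the pools the pituitary stress difference was -0.3745 for Esr2, 0.0962 for Pgr and 0.0071 for Nr3c1. Under quantile normalization it was -0.0003 for Esr2, while high minus low in pituitary was 0.0082 for Nr3c2 and pituitary minus hypothalamus was 0.0134 for Pgr. The other Nr3c2 cluster gave -0.0849 for stress in ovary and -0.3437 for pituitary minus hypothalamus.

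Among the 11090 genes at or above the median level 875 passed for high minus low in hypothalamus, against 0 among all genes. Leaving out 1 array gave 0 to 1 there (Rph3a without the control high mouse, a gene named after its value was seen) and 0 to 27 in ovary (27 without the control high mouse, 1, Col2a1, without the stressed low mouse). For the stress effect of pituitary minus hypothalamus and of ovary minus hypothalamus 1 gene, Slc6a3, passed without the pools, and leaving out 1 array gave 0 to 1 (1 without the control hypothalamus pool). The receptors passing for pituitary minus hypothalamus numbered 2 to 4 (4, with Esr2 and Nr3c2 added, without the stressed pituitary pool). For Nr3c2 this difference also passed without the control hypothalamus of the low mouse (0.40) or the stressed hypothalamus pool (0.39). With all arrays it passed for Nr3c2 under quantile normalization (0.42) and among the genes at or above the median level (0.32). Gper1 in ovary minus hypothalamus lost its call without the stressed ovary of the high (-0.43) or low mouse (-0.38) or pool (-0.44), the control ovary of the low mouse (-0.31) or pool (-0.43), the stressed hypothalamus of the high mouse (-0.43) or pool (-0.36), or the control hypothalamus of the low mouse (-0.38) or pool (-0.42).

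Leaving out 1 array at a time gave these ranges for receptors whose direction changed. Stress minus control in ovary ran from -0.0633 to 0.23 for Esr1, -0.14 to 0.32 for Esr2 and -0.20 to 0.19 for Pgr. High minus low ovulation in ovary ran from -0.23 to 0.23 for Esr1, -0.0955 to 0.80 for Esr2, -0.47 to 0.50 for Pgr and -0.26 to 0.0449 for Nr3c1. Stress minus control in pituitary ran from -0.0337 to 0.49 for Esr1, -0.32 to 0.27 for Esr2, -0.48 to 0.13 for Pgr, -0.22 to 0.0235 for Nr3c1 and -0.0388 to 0.12 for Nr3c2. High minus low ovulation in pituitary ran from -0.61 to 0.35 for Esr1, -0.27 to 0.52 for Esr2, -0.12 to 0.20 for Nr3c1, -0.19 to 0.0642 for Nr3c2 and -0.81 to 0.0230 for Gper1. Stress minus control in hypothalamus ran from -0.0689 to 0.24 for Esr1, -0.21 to 0.0782 for Pgr, -0.34 to 0.0776 for Nr3c1, -0.28 to 0.17 for Nr3c2 and -0.20 to 0.0950 for Gper1. High minus low ovulation in hypothalamus ran from -0.0057 to 0.16 for Esr2 and -0.32 to 0.21 for Gper1. Pituitary minus hypothalamus ran from -0.17 to 0.15 for Pgr.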
